A study of Mus musculus with 28 samples.

Results

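Ribosomes were pulled down from the cortex of mice in the acute phase of experimental autoimmune encephalomyelitis (EAE), and the RNA that came with them was compared with the RNA of cortex input. The members are the 5 libraries titled as acute pulldown and the 5 titled as acute input, 10 of the 28 libraries of the series, and every gene of the deposited count table was considered. All mice were of the genotype Glt25d2 BacTRAP. All 10 libraries came from mice actively immunised with the myelin peptide MOG35-55 and taken 15 days later. The immunoprecipitated RNA (IP) is labelled as neurons and the input as cortex. Pulldown and input libraries of healthy mice of the same genotype (5 of each) and of the chronic phase 30 days after immunisation (4 of each) enter only where the acute ratio is set against theirs. Whether each library stands for its own mouse is not stated in the labels; p-values here reflect library-to-library spread, part of which may be technical.

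In a BacTRAP mouse a bacterial artificial chromosome drives a tagged ribosomal protein from the regulatory sequence of 1 gene, so that ribosomes of the cells using that gene can be fished out of a whole tissue. The driver here, Glt25d2, is now called Colgalt2 and marks projection neurons of cortical layer 5, the large cells whose axons leave the cortex for the brainstem and spinal cord. A pulldown of this kind enriches messenger RNAs that were on tagged ribosomes and carries along some RNA from the rest of the tissue. In EAE, T cells directed at myelin cause inflammation of the brain and spinal cord, and axons of such long projection neurons are among the structures damaged.

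The acute pulldown libraries were less even in depth than their inputs, and each had fewer genes detected. They held 10172186, 21229550, 6198088, 21016043 and 17956075 counts from pulldown 1 to 5, against 19020653 to 27915940 counts in the inputs. At least 1 count was found for 10174, 14750, 9566, 17995 and 15437 genes in the pulldown libraries and for 21118 to 21734 genes in the input libraries. Pulldown 1 and pulldown 3 stood apart: of the 4382 genes with a mean of 0.5 to 5 CPM in the inputs, 15.9% and 12.9% had a read there, 60.5% to 94.0% in the other 3 pulldown libraries, and 99.98% or more in the inputs. Across genes, the correlation of log CPM (counts scaled to a common library size) between libraries was 0.731 to 0.956 among the pulldowns and 0.986 to 0.992 among the inputs. Where a result is also given without pulldowns 1 and 3 together, that choice was made after seeing the data.

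In edgeR's quasi-likelihood test at an adjusted p under 0.05, 1420 of the 16580 genes tested were higher in the pulldown (8.56%) and 1677 were lower (10.1%), together 18.7%. The median log2 ratio of pulldown to input over all genes tested was -0.36. Among the called genes 462 were more than 2-fold higher and 1139 more than 2-fold lower. The CPM ranges of the 5 pulldowns and the 5 inputs did not overlap for 1236 genes on the high side (7.45%) and for 3991 genes on the low side (24.1%).

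Fezf2, Pou3f1, Crym and Colgalt2, which mark the target neurons, were higher in the pulldown. Fezf2, the transcription factor that specifies layer 5 neurons projecting out of the cortex (chromosome 14, 12341892 to 12345865, minus strand, GRCm38), had 396, 312, 251, 255 and 255 CPM in pulldowns 1 to 5, against 69.1, 80.2, 74.8, 67.6 and 58.0 CPM in inputs 1 to 5. Every pulldown library lay above every input library, and the log2 ratio was 2.07 ± 0.20 (SE, n = 5 per fraction, edgeR adjusted p = 5.369e-09). The SE of each log2 ratio was derived from the test statistic of 1 fit of all 28 libraries. That fit holds 1 spread per gene for both fractions, although the pulldowns varied more among themselves than the inputs. It is therefore not the spread of the acute libraries alone. Pou3f1, a transcription factor of the same neurons (chromosome 4, 124656807 to 124660655, plus strand), had 471, 441, 196, 322 and 393 CPM in the pulldowns, against 95.4, 94.5, 81.6, 93.0 and 76.9 CPM in the inputs. Its groups did not overlap either, with the lowest value in pulldown 3 (log2 ratio 2.05 ± 0.20).

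Crym, which encodes a thyroid hormone binding protein and marks deep-layer projection neurons (chromosome 7, 120186380 to 120202111, minus strand), had 664, 354, 341, 486 and 443 CPM in the pulldowns, against 126, 152, 148, 181 and 172 CPM in the inputs. The highest value was in pulldown 1 and the log2 ratio was 1.56 ± 0.16. Colgalt2, the driver gene, which encodes a collagen galactosyltransferase (chromosome 1, 152399830 to 152510695, plus strand), moved less. It had 82.0, 102, 66.0, 84.6 and 74.7 CPM in the pulldowns, against 53.1, 53.1, 53.3, 53.5 and 52.1 CPM in the inputs, groups that did not overlap (log2 ratio 0.63 ± 0.17, edgeR adjusted p = 0.006427). In bulk libraries of this kind, fewer cells of a type and less RNA per cell cannot be told apart. Counts at Colgalt2 may come from the mouse's own gene and from the transgene, which the counting does not separate.

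**Figure D1:**
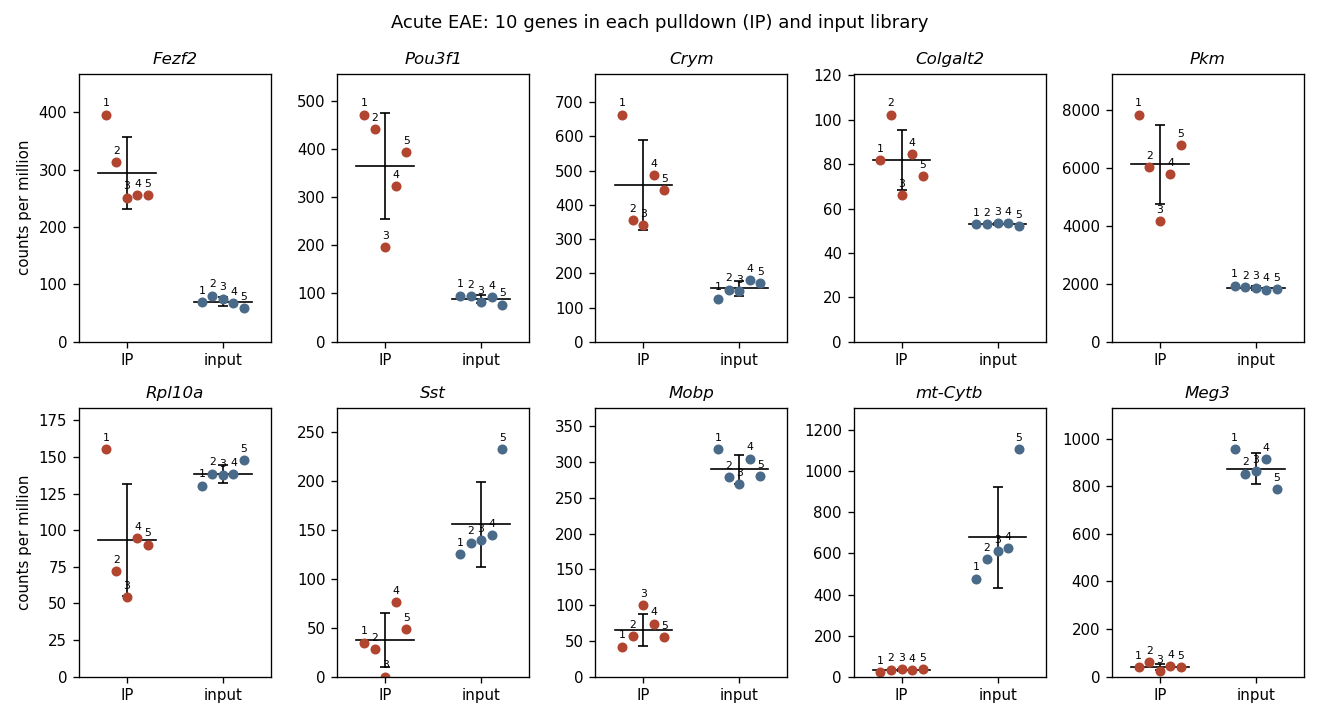
Each panel shows 1 gene in CPM (linear axis from 0) in the 5 acute pulldown libraries (red, left) and the 5 acute input libraries (blue, right), numbered by library, with the mean as a bar and the SD as whiskers. Fezf2, Pou3f1, Crym, Colgalt2 and Pkm lie higher in every pulldown library, and Sst, Mobp, mt-Cytb and Meg3 lie lower, while for Rpl10a pulldown 1 with 155 CPM lies above all inputs and the other 4 pulldowns lie below them.

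Rpl10a encodes the ribosomal protein that carries the tag in lines of this kind (chromosome 17, 28328471 to 28331032, plus strand). Counts at Rpl10a may therefore also mix the mouse's own gene and the transgene. Rpl10a had 155, 72.0, 54.1, 94.7 and 90.0 CPM in the pulldowns, against 130.4, 138, 138, 138 and 148 CPM in the inputs. Pulldown 1 was the highest of the 10 libraries and pulldown 3 the lowest, and the log2 ratio of -0.57 ± 0.20 was called (edgeR adjusted p = 0.04882). That call was lost in 12 of the 19 alternative settings of the fit, among them leaving out any 1 acute library other than pulldown 1 (adjusted p up to 0.3072).

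Of the 20 layer 5 markers tested, 10 were higher and none lower in the pulldown with edgeR, and 10 were not called. Over all genes tested 8.56% were higher and 10.1% lower. The ratio was under 0 for 3 of the 20 markers, down to -2.694. Their median log2 ratio was 0.79, against -0.36 over all genes tested. Summed over the list, the markers held 2115 to 2603 CPM in the pulldowns and 986 to 1083 CPM in the inputs. Called members besides the ones above were Nefh, the heavy neurofilament (log2 ratio 1.802 ± 0.132), Vat1l, a marker of the large subcortically projecting cells (1.60 ± 0.17), and Ldb2, a transcriptional cofactor (1.06 ± 0.14). The same count of 10 higher and 0 lower was found without pulldowns 1 and 3.

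No marker of the other cortical layers was called higher. None of the 12 upper layer markers was called higher and 2 were lower (median log2 ratio -0.66), namely Rorb, the layer 4 transcription factor, and Rasgrf2, an exchange factor of upper layers. Over all genes tested 8.56% were higher and 10.1% lower, and these small counts were not tested against those shares. The ratio was over 0 for 3 of the 12, and for 1 of them every pulldown lay above every input. Rorb had 6.49, 14.4, 12.1, 12.6 and 13.4 CPM in the pulldowns, against 32.1 to 38.5 CPM in the inputs (log2 ratio -1.59 ± 0.28). Of 12 layer 6 markers, Rprm, a p53 target enriched in corticothalamic neurons, was lower (-1.003 ± 0.230) and none was called higher. The ratio was over 0 for 5 of the layer 6 markers, up to 1.503.

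Inhibitory neuron markers were lower in 7 of 13 cases and higher in none (median log2 ratio -1.51). Sst, the somatostatin precursor of an interneuron class, had 34.6, 28.2, 0, 76.2 and 48.2 CPM in the pulldowns, against 125, 137, 139, 145 and 232 CPM in the inputs (log2 ratio -2.04 ± 0.54, edgeR adjusted p = 0.006493). Pulldown 3 had no count for it and input 5 was the highest. The peptide genes Vip (-2.01 ± 0.55) and Npy (-1.46 ± 0.41), the neuregulin receptor Erbb4 (-2.57 ± 0.74), the noncoding Dlx6os1 (-4.03 ± 0.92) and the calcium buffer Pvalb (-0.84 ± 0.25) were lower as well. Pvalb overlapped, with 30.4 to 104 CPM in the pulldowns and 101 to 109 CPM in the inputs. Without pulldowns 1 and 3 the list had 6 lower and 2 higher members, and with the 10 acute libraries fitted alone 2 were lower. The call of Pvalb was lost without pulldown 2 (adjusted p up to 0.152 over the settings).

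**Figure D2:**
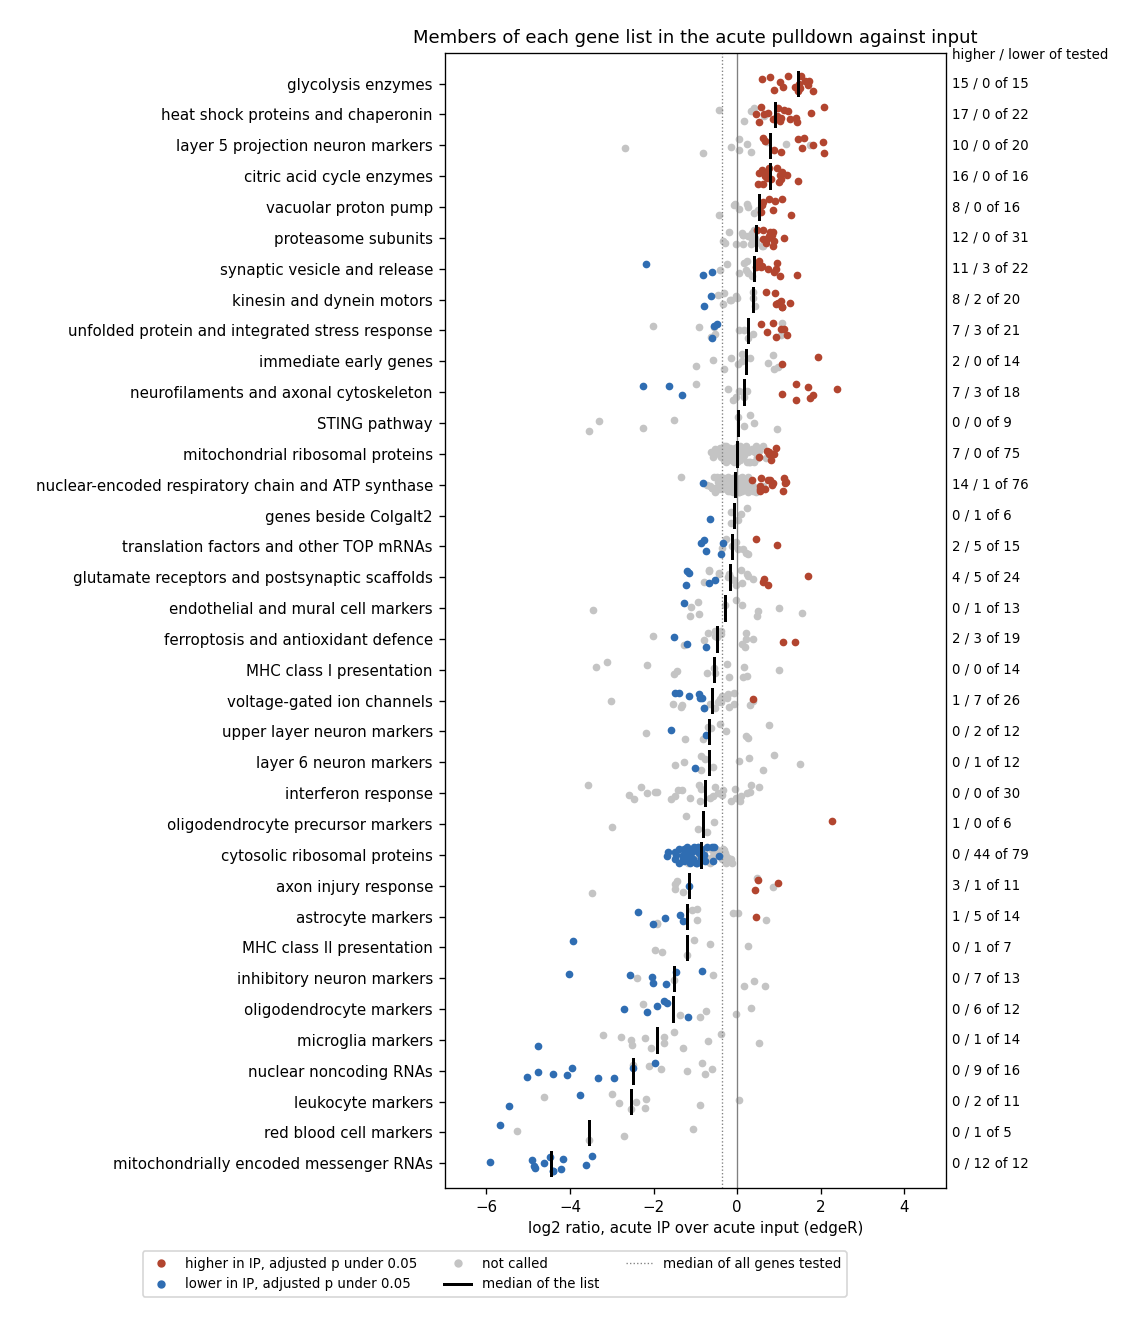
Each dot is 1 gene of a list, placed by its log2 ratio of acute pulldown over acute input (x axis), in red where higher and in blue where lower at an edgeR adjusted p under 0.05, with the list's median as a black bar and the median of all genes tested (-0.36) as a dotted line. Glycolysis enzymes lie at the top with 15 of 15 higher, and mitochondrially encoded messenger RNAs at the bottom with 12 of 12 lower.

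Glial markers were lower or not called, with 2 exceptions. Of 12 oligodendrocyte markers, 6 were lower and none higher (median log2 ratio -1.53), and the list summed to 879 to 1304 CPM in the pulldowns and 2206 to 2852 CPM in the inputs. Mobp, a myelin basic protein of oligodendrocytes, had 41.8, 56.4, 100.2, 74.0 and 54.7 CPM in the pulldowns, against 318, 279, 269, 305 and 280.0 CPM in the inputs. Its groups were far apart (log2 ratio -2.15 ± 0.23). Mbp, a main structural protein of myelin, was also lower (-1.17 ± 0.20), as was Mog, the source of the peptide used for immunisation (-1.75 ± 0.34). Mog had 9.99, 7.10, 6.74, 13.4 and 7.53 CPM in the pulldowns, against 29.2, 27.5, 28.5, 26.1 and 40.03 CPM in the inputs, so none of the pulldown libraries was free of myelin RNA.

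Of 14 astrocyte markers, 5 were lower, among them the glutamate transporter Slc1a2 (-1.36 ± 0.27), the growth factor receptor Fgfr3 (-1.72 ± 0.34) and the water channel Aqp4 (-2.02 ± 0.66). Aldoc, the aldolase of astrocytes and a glycolytic enzyme, was the 1 astrocyte marker called higher (0.45 ± 0.15, adjusted p = 0.02988), a call lost in 6 of 19 settings, among them without pulldown 4 or 5 and without input 1, 2 or 3 (adjusted p up to 0.1115). Aqp4 lost its call in 7 of 19 settings, among them voom, the replicate block, without pulldowns 1 and 3 together, and without pulldown 5, input 3 or input 5 (up to 0.08235 over the settings). The astrocyte list had 3 lower members without input 5, and 3 without pulldowns 1 and 3. The summed list ran from 1831 to 3519 CPM in the pulldowns, highest in pulldowns 4 and 5, and from 2414 to 3954 CPM in the inputs. Cspg4, a proteoglycan of oligodendrocyte precursors, was the other exception. It had 0, 24.3, 6.11, 22.9 and 56.8 CPM in the pulldowns, against 4.25 to 5.06 CPM in the inputs (2.26 ± 0.74, adjusted p = 0.02939), and its call was lost in 8 of 19 settings, among them without pulldown 5 and without any 1 input (adjusted p up to 0.4121). None of the other 5 precursor markers tested was called.

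Summed microglia and leukocyte markers lay below every input in all 5 pulldowns, vessel markers overlapped, and few single genes passed the test. Of 14 microglia markers 1 was called, Tyrobp, the adaptor of microglial surface receptors, with 0, 0, 0, 0.786 and 0.720 CPM in the pulldowns, against 10.2, 7.32, 9.94, 7.18 and 9.25 CPM in the inputs. Its call (log2 ratio -4.78 ± 1.67, adjusted p = 0.04309) was lost in 12 of 19 settings, among them without any 1 acute library other than pulldown 4 (adjusted p up to 0.1854). The complement gene C1qb, at 0, 4.40, 0, 13.7 and 13.95 CPM in the pulldowns and 23.5 to 40.4 CPM in the inputs, was not called. The summed microglia markers were 11.4, 66.9, 26.7, 98.8 and 121.9 CPM in the pulldowns, against 161 to 258 CPM in the inputs. The median of the 14 log2 ratios was -1.91.

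Leukocyte markers were lower in 2 of 11 cases tested and higher in none. Ccr2, the chemokine receptor of infiltrating monocytes, had reads in pulldown 4 only (0.105 CPM), against 1.98, 1.04, 1.38, 1.04 and 1.74 CPM in the inputs (-5.45 ± 1.02, adjusted p = 0.0003963). Ly6c2, a surface protein of inflammatory monocytes, likewise had reads in pulldown 4 only (0.419 CPM), against 0.484 to 2.03 CPM in the inputs (-3.77 ± 1.11). The call of Ly6c2 was lost in 4 of 15 settings, namely DESeq2, the 10 acute libraries alone, and without pulldowns 1 and 3 with and without the length offset (adjusted p up to 0.1254). The summed list held 0 to 26.9 CPM in the pulldowns, with 0 in pulldown 3, and 47.0 to 62.7 CPM in the inputs. Of the 16 listed members 2 were at 0 in all pulldowns. Of 13 endothelial and mural markers, the pericyte gene Rgs5 was lower (-1.26 ± 0.30) and none was higher. Their sum was 58.9, 51.4, 15.7, 97.4 and 108 CPM in the pulldowns, against 67.2 to 99.96 CPM in the inputs, with pulldown 5 above and pulldown 3 far below them. The median log2 ratio of the vessel markers was -0.28, against -0.36 over all genes tested, and 0.43 without pulldowns 1 and 3. Among 5 red blood cell markers, the globin gene Hbb-bt was called lower. It had no counts in any pulldown and 0.0415 to 1.04 CPM in the inputs, and its call was lost in 2 of 18 settings.

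Of the interferon, antigen presentation and DNA sensing genes tested, 1 was called, the class II regulator Ciita. None of 30 interferon response genes, none of 14 class I presentation genes and none of 9 STING pathway genes was called in either direction with edgeR; their medians were -0.76, -0.55 and 0.01. Cxcl10, the interferon-induced chemokine, had 0, 1.27, 0, 2.52 and 2.62 CPM in the pulldowns, against 19.3, 7.89, 26.2, 10.54 and 13.3 CPM in the inputs, groups that did not overlap (-3.56 ± 1.36, adjusted p = 0.0702). It was unevenly expressed among the inputs, with the highest value in input 3. The ranges did not overlap on the low side for 7 of the 30 interferon, 5 of the 14 class I and 3 of the 9 STING pathway genes. Over all genes tested that share was 24.1%, so a lack of overlap says little about these members.

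B2m, the light chain of class I molecules, lay lower in every pulldown (36.7 to 77.3 CPM) than in any input (106 to 164 CPM) and was not called (-1.50 ± 0.56, adjusted p = 0.06181). Sting1, the adaptor of cytosolic DNA sensing, had 0, 0, 0, 0.576 and 0.197 CPM in the pulldowns, against 1.78, 2.06, 2.16, 1.25 and 2.81 CPM in the inputs. Its groups did not overlap, it was not called (-3.54 ± 1.27, adjusted p = 0.05242), and 5 of the alternative settings called it. Of its partners, the sensor Cgas had 0 to 1.48 CPM in the pulldowns and 0.968 to 2.58 CPM in the inputs, and the kinase Tbk1 had 40.6 to 63.6 CPM in the pulldowns and 42.1 to 50.5 CPM in the inputs. Ciita, the master regulator of class II, was called lower (-3.92 ± 1.12) among 7 class II genes. Cd74, the invariant chain, overlapped between the fractions (6.80 to 43.8 CPM in the pulldowns and 32.2 to 51.6 CPM in the inputs).

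Messenger RNAs encoded by the mitochondrial genome, which are translated by ribosomes inside the organelle, had the lowest median ratio of the lists. They took 0.0156 ± 0.0039% of the counts in the pulldowns and 0.396 ± 0.130% in the inputs (mean ± SD, n = 5 each). In an exact two-sided permutation test p was 0.007937, the smallest that 5 against 5 libraries can give, and the Benjamini-Hochberg value over 4 measures was 0.0106. Of the 13 members 12 passed the filter on low counts, and each of these was lower, with a median log2 ratio of -4.45. Cytochrome b, mt-Cytb, had 20.2, 33.9, 36.8, 32.4 and 36.2 CPM in the pulldowns, against 477, 572, 611, 626 and 1108 CPM in the inputs (-4.41 ± 0.30). The oxidase subunit mt-Co1 (-4.62 ± 0.38) and the complex I subunits mt-Nd1 (-4.39 ± 0.36) and mt-Nd4 (-3.47 ± 0.33) were lower alike. Input 5 was the highest for each of these genes. Nuclear copies of mitochondrial sequence may take part of these reads.

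Noncoding RNAs, most of them known from the nucleus, were lower as well. They took 0.0283 ± 0.0039% of the counts in the pulldowns and 0.239 ± 0.013% in the inputs (exact permutation p = 0.007937, Benjamini-Hochberg 0.0106, n = 5 each), and 9 of 16 were called lower and none higher (median log2 ratio -2.49). Meg3, an imprinted noncoding RNA of neurons, had 40.8, 59.1, 22.1, 44.1 and 38.2 CPM in the pulldowns, against 956, 853, 865, 914 and 789 CPM in the inputs (-4.41 ± 0.33). Snhg11, a noncoding snoRNA host gene, stood at -3.34 ± 0.28, Neat1, the scaffold of paraspeckles, at -3.95 ± 0.80, and Rian, an imprinted neighbour of Meg3, at -1.96 ± 0.16.

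Messenger RNAs of the cytosolic ribosome itself were lower in the pulldown. Of 79 ribosomal protein genes, 44 were lower and none higher with edgeR, with a median log2 ratio of -0.86 and a range of -1.69 to -0.13. Their share of counts was 1.97, 0.610, 0.530, 1.07 and 0.905% in pulldowns 1 to 5 and 1.88 to 2.10% in the inputs (mean 1.02 ± 0.58% in pulldowns and 1.94 ± 0.09% in inputs, exact two-sided permutation p = 0.0397, n = 5 each). Pulldown 1 lay within the inputs and the other 4 below them. With pulldowns 1 and 3 left out, 67 of the 79 were lower, and 73 without pulldown 1 alone. With the 10 acute libraries fitted alone, 8 of 78 tested were lower.

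Rps20, a protein of the small subunit, had 36.7, 24.6, 33.7, 59.0 and 62.9 CPM in the pulldowns, against 139, 138, 138, 137 and 146 CPM in the inputs (-1.69 ± 0.27). Rps3a1, of the same subunit, had 195, 104, 160.4, 199.6 and 161 CPM in the pulldowns, against 309, 304, 303, 319 and 330.3 CPM in the inputs (-0.93 ± 0.12). Both lay lower in every pulldown library. Rpl13a, of the large subunit, had 412, 130.1, 56.7, 217 and 222 CPM in the pulldowns, against 562, 555, 567, 589 and 626 CPM in the inputs (-1.48 ± 0.27). Rpl9, also of the large subunit, was lower by a like amount (-1.40 ± 0.24). For both large subunit genes pulldown 1 came closest to the inputs and pulldown 3 was the lowest.

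Ribosomal proteins and several translation factors belong to the class of TOP messenger RNAs, which begin with a C followed by a run of pyrimidines and whose translation is controlled together. Of 15 translation factors and other TOP genes, 5 were lower and 2 higher. The elongation factor Eef2 had 2293, 2275, 1677, 1892 and 2484 CPM in the pulldowns, against 1113, 1115, 1106, 1059 and 1079 CPM in the inputs, and so was higher (0.96 ± 0.09). Its partner Eef1a1 (-0.38 ± 0.09), the poly A binding protein Pabpc1 (-0.79 ± 0.14) and Tpt1, a translationally controlled protein (-0.75 ± 0.20), were lower. Members of the class were thus called in both directions. In the fit of the 10 acute libraries alone 1 was lower.

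To show what the start of these genes looks like, the 15 bases before and the 15 bases from the annotated start are printed for the 6 ribosomal protein genes and the 4 other genes of the class with the smallest p among those with 1 annotated promoter, from RefSeq (GRCm38.p6), 5′ to 3′ on the transcribed strand. Capitals mark a C with at least 5 further C or T whose C lies within 10 bases of the start. The windows are Rps3a1 at chr3:86142654-86142683 (minus), Rpl9 at chr5:65391417-65391446 (minus), Rpl13a at chr7:45128731-45128760 (minus), Rpl12 at chr2:32961697-32961726 (plus), Rps3 at chr7:99483695-99483724 (minus), Rps15a at chr7:118116133-118116162 (minus), Eef1a1 at chr9:78481710-78481739 (minus), Eef1b2 at chr1:63176816-63176845 (plus), Tpt1 at chr14:75845241-75845270 (plus) and Eef2 at chr10:81176616-81176645 (plus).
Rps3a1: ttaaagccggaagggcgaaagagcaagggt
Rpl9: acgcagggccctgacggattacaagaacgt
Rpl13a: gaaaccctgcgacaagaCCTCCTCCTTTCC
Rpl12: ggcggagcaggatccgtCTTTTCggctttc
Rps3: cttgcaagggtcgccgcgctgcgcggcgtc
Rps15a: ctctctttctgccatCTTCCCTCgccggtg
Eef1a1: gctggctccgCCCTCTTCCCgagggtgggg
Eef1b2: tggacctgcagttccgccggaagtagccga
Tpt1: gtcaccgctgacgacagttccgggggagcc
Eef2: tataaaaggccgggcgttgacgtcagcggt

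The 6 ribosomal protein genes and 3 of the 4 others were lower and Eef2 was higher. Such a run was present at Rpl13a, Rpl12, Rps15a and Eef1a1 and not in the other 6 windows, and 19.2% of all 32851 promoters held one on the transcribed strand and 22.2% on the other. The annotated start need not be the capped start of the RNA. RefSeq promoters were matched for 58 of the 79 ribosomal protein genes, too few for a check over the list, which is void. Of the 68 promoters that were matched, 33 (48.5%) held the run on the transcribed strand and 6 (8.82%) on the other.

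Ribosomal protein genes have short messenger RNAs (median exon length per gene 1498 bases), and the pulldown libraries differed among themselves by exon length. In the 482 shortest of the well-covered genes (average log2 CPM of at least 3), the median log2 ratio to input minus that in the 1339 longest was 1.58, -0.60, -1.12, 0.23 and 0.12 in acute pulldowns 1 to 5. The median ratio of the ribosomal protein genes in the same libraries was 0.17, -1.63, -1.96, -0.78 and -0.92, on the scale of log2(CPM + 0.5). Pulldown 1, which was relatively rich in short genes, was thus the highest for the ribosomal proteins, and pulldown 3, poorest in short genes, was the lowest. With an offset that removes the trend on exon length from each library, 65 of the 79 were lower.

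**Figure D3:**
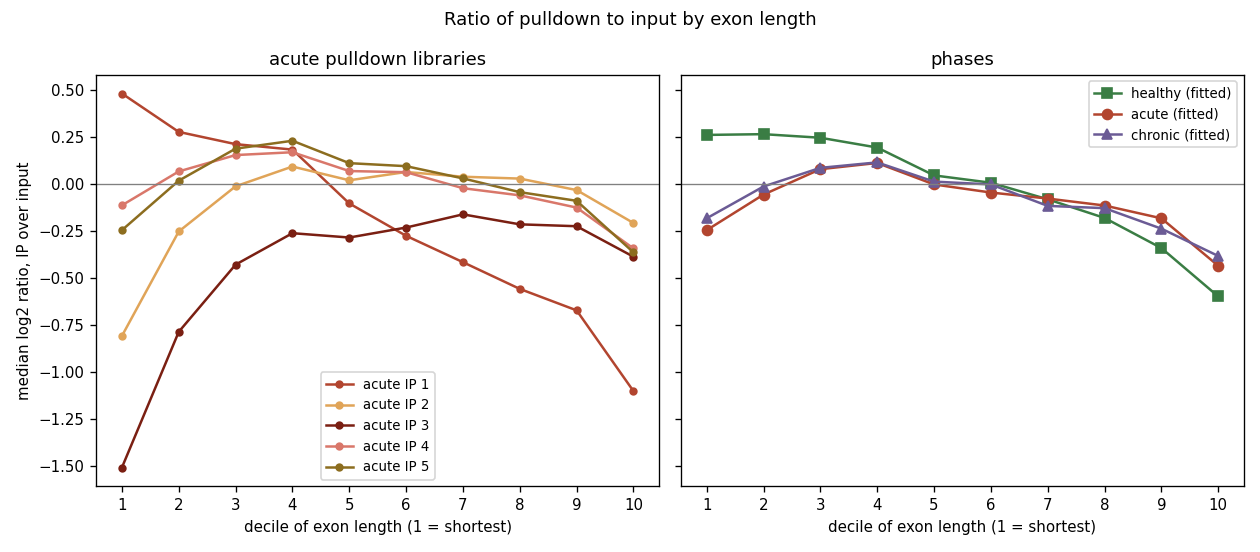
The median log2 ratio of pulldown to input (y axis) over well-covered genes in 10 classes of exon length (x axis, 1 is the shortest) is drawn for each acute pulldown library at left and for the fitted ratio of each phase at right. Pulldown 1 runs downward, with 0.48 for the shortest and -1.10 for the longest genes, and pulldown 3 lies lowest for the shortest genes at -1.51.

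The 76 nuclear-encoded genes of the respiratory chain and ATP synthase had a median log2 ratio of -0.05, with 14 higher and 1 lower, and their median in pulldowns 1 to 5 was 0.88, -0.75, -1.06, 0.11 and -0.04, again highest in pulldown 1 and lowest in pulldown 3. Atp5f1a, the alpha subunit of ATP synthase, had 2185, 2264, 1539, 2337 and 2594 CPM in the pulldowns, against 1026, 1064, 1022, 987 and 968 CPM in the inputs (1.11 ± 0.10). Ndufs1, the large iron-sulfur subunit of complex I (1.15 ± 0.12), and Sdha, the flavoprotein of complex II (0.86 ± 0.10), were also higher. Without pulldowns 1 and 3, 14 were higher and 15 lower. Among 75 mitochondrial ribosomal proteins, which are made in the cytosol, 7 were higher and none lower (median 0.00), among them Mrpl38 (0.92 ± 0.16) and Mrps5 (0.77 ± 0.17). Their ratios were over 0 for 38 and under 0 for 37. Over all genes tested 8.56% were called higher, so the 7 calls say little about this list. Leaving out pulldown 1 gave 4 mitochondrial ribosomal proteins higher.

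All listed enzymes of glycolysis and the citric acid cycle were higher. The lists do not hold every enzyme of these pathways, and Aldoc, named above among the astrocyte markers, is not on the glycolysis list. All 15 glycolysis enzymes tested were higher, with a median log2 ratio of 1.46, and the list summed to 27350 to 50160 CPM in the pulldowns and 13450 to 14390 CPM in the inputs. All 15 were also higher in the pulldowns of healthy (median 1.14) and of chronic mice (median 1.72). Pkm, pyruvate kinase, had 7828, 6018, 4156, 5772 and 6765 CPM in the pulldowns, against 1936, 1881, 1864, 1788 and 1810 CPM in the inputs (1.72 ± 0.11). Hk1, the brain hexokinase that opens the pathway, had 1066, 1543, 1364, 1118 and 1406 CPM in the pulldowns, against 387, 389.5, 361, 352 and 346 CPM in the inputs (1.82 ± 0.11). The 2 groups were far apart for both enzymes. Eno2, the neuronal enolase (1.46 ± 0.08), and Gpi1, glucose phosphate isomerase (1.62 ± 0.10), stood at like values.

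All 16 citric acid cycle enzymes were higher too (median 0.78), as were 14 in healthy and 16 in chronic mice. Ogdh, of the oxoglutarate dehydrogenase complex, had 383, 546, 574, 464 and 535 CPM in the pulldowns, against 251.7, 243, 235, 229 and 235 CPM in the inputs (1.07 ± 0.10). The same 15 of 15 and 16 of 16 were called higher without pulldowns 1 and 3. Of 16 subunits of the vacuolar proton pump, which acidifies lysosomes and synaptic vesicles, 8 were higher and none lower, among them Atp6v0a1 (1.28 ± 0.12) and Atp6v1b2 (0.90 ± 0.08).

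Most chaperones and part of the proteasome subunits were higher. Of 22 heat shock proteins and chaperonin subunits, 17 were higher and none lower (median 0.91). In healthy mice 18 were higher and in chronic mice 19. Hspa8, the constitutive Hsp70, had 5449, 2984, 3086, 4033 and 4591 CPM in the pulldowns, against 1569, 1497, 1474, 1446 and 1540 CPM in the inputs (1.42 ± 0.13). Hsp90ab1 and Hsp90aa1, the cytosolic Hsp90 forms, stood at 1.42 ± 0.10 and 1.22 ± 0.08, and Hsph1, an Hsp110 chaperone, at 1.27 ± 0.11. Hspa1a, the heat-inducible Hsp70, had 32.0 to 40.6 CPM in the pulldowns and 8.33 to 10.6 CPM in the inputs (2.07 ± 0.34). Each of these genes was higher in all 5 pulldown libraries.

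Proteasome subunits were higher in 12 of 31 cases and lower in none (median 0.45), with the ATPase Psmc4 at 0.86 ± 0.11 and the lid subunit Psmd3 at 0.85 ± 0.11; 16 were higher without pulldowns 1 and 3, and 20 without pulldown 3 alone. In healthy mice 22 of the 31 proteasome subunits were higher and 1 lower, and in chronic mice 23 were higher. On the scale of log2(CPM + 0.5) the proteasome median was -0.40 in pulldown 3 and 0.19 to 1.013 in the other 4. The unfolded protein and integrated stress response was mixed, with 7 of 21 higher and 3 lower. The endoplasmic reticulum chaperones Calr (1.19 ± 0.20) and Hspa5 (0.93 ± 0.19) and the asparagine synthetase Asns (1.05 ± 0.18) were higher. Atf4, the transcription factor whose translation rises in that response, was lower, with 167, 135, 129.6, 153 and 141 CPM in the pulldowns, against 211, 233, 227, 211 and 209 CPM in the inputs (-0.59 ± 0.10).

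Of 18 genes of neurofilaments and the axonal cytoskeleton, 7 were higher and 3 lower (median 0.15), and with the length offset 12 were higher. All 7 higher ones encode neurofilament subunits, the related internexin or tubulins. Nefm, the middle neurofilament of large axons (chromosome 14, 68082590 to 68124846, minus strand), had 1491, 1727, 1597, 1497 and 1954 CPM in the pulldowns, against 310.4, 334, 334, 319 and 291 CPM in the inputs (2.38 ± 0.11, adjusted p = 6.392e-16). No pulldown library came near the inputs. Nefl, the light neurofilament (1.40 ± 0.10), the neuronal tubulin Tubb3 (1.73 ± 0.12) and Tubb4a (1.69 ± 0.11) were higher as well.

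The lower members were Map2, the microtubule-associated protein of dendrites, Macf1, a giant cytoskeletal linker, and Sptan1, the alpha spectrin of membranes. Map2 had 167, 205, 207, 277 and 205 CPM in the pulldowns, against 721, 641, 635, 678 and 616 CPM in the inputs (-1.63 ± 0.11). Macf1 stood at -2.26 ± 0.35. Sptan1 (-1.32 ± 0.43, adjusted p = 0.02724) lost its call in 7 of 19 settings, among them leaving out pulldown 1, 3 or 5.

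Of 20 kinesin and dynein motor genes, 8 were higher and 2 lower (median 0.38). With the length offset and without pulldowns 1 and 3, 13 were higher. Klc1, a kinesin light chain (1.05 ± 0.09), and Kif3a, a subunit of kinesin-2 (1.26 ± 0.12), were higher. Dynll2, a dynein light chain (-0.79 ± 0.09), and Dync1h1, the dynein heavy chain (-0.62 ± 0.17), were lower. For Dync1h1 pulldown 1 (83.1 CPM) and pulldown 3 (96.1 CPM) were low, the other 3 held 149 to 204 CPM, and the inputs held 189 to 227 CPM. With pulldowns 1 and 3 left out the ratio was -0.325 and was not called, and with the length offset in addition it was 0.115.

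Presynaptic genes were higher in 11 of 22 cases and lower in 3 (median 0.40). Syn1, a phosphoprotein of synaptic vesicles, had 1015, 1572, 1804, 1225 and 1491 CPM in the pulldowns, against 758, 760.5, 692, 646 and 658 CPM in the inputs (1.02 ± 0.13). Every pulldown lay above every input, with pulldown 1 the lowest of them. Snap25, a fusion protein of vesicles (0.89 ± 0.11), and Nsf, the ATPase that recycles the fusion machinery (1.44 ± 0.10), were higher too. The active zone scaffolds Pclo (-2.19 ± 0.32) and Bsn (-0.82 ± 0.28) were lower, though Bsn lost its call in 11 of 19 settings, among them without pulldown 1, 2 or 3 and without input 1, 3, 4 or 5 (adjusted p up to 0.9851).

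Postsynaptic genes moved both ways, with 4 of 24 higher and 5 lower (median -0.18). Grin1, the obligatory subunit of NMDA receptors, had 599.6, 659, 411, 570.2 and 869 CPM in the pulldowns, against 171, 186, 179, 184 and 237 CPM in the inputs (1.70 ± 0.17). The kinases Camk2a (0.63 ± 0.10) and Camk2b (0.74 ± 0.09) were higher. The scaffolds Homer1 (-1.15 ± 0.17), Dlg2 (-1.24 ± 0.26) and Shank1 (-1.19 ± 0.25) were lower in every pulldown library than in any input. Leaving out pulldown 1 left 3 lower members, and the 10 acute libraries fitted alone gave 2.

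Voltage-gated channels were lower in 7 of 26 cases and higher in 1 (median -0.59). DESeq2 called 12 lower. Cacnb4, an accessory calcium channel subunit, had 70.2, 89.0, 154, 96.9 and 75.8 CPM in the pulldowns, against 290.1, 279.5, 282, 276 and 229 CPM in the inputs (-1.49 ± 0.20). The potassium channels Kcna1 (-0.91 ± 0.14) and Kcnq3 (-1.40 ± 0.23) were lower too.

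Iron storage messenger RNAs were lower. Fth1, the ferritin heavy chain, had 749, 578, 643, 619 and 626 CPM in the pulldowns, against 1944, 1777, 1741, 1838 and 1891 CPM in the inputs (-1.51 ± 0.12), and Ftl1, the light chain, stood at -1.20 ± 0.13. Ferritins are held back from ribosomes by iron regulatory proteins when iron is scarce, and both chains have short messenger RNAs and processed pseudogenes that may take reads. Of 19 genes of ferroptosis and antioxidant defence, 3 were lower and 2 higher. The higher ones were Slc3a2, the heavy chain of the cystine importer (1.08 ± 0.16), and Ncoa4, the receptor that delivers ferritin to lysosomes (1.37 ± 0.28). Gpx4, the enzyme that detoxifies lipid peroxides, had 338, 115, 65.2, 172 and 173 CPM in the pulldowns, against 280.0, 282, 278, 277 and 322 CPM in the inputs. Pulldown 1 lay above the inputs and the other 4 below, and the call (-0.74 ± 0.25, adjusted p = 0.03509) was lost in 10 of 19 settings, among them without any 1 acute library other than pulldown 1 (adjusted p up to 0.317).

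Of 11 genes of the axon injury response, 3 were higher and 1 lower. Gap43, a growth cone protein (0.97 ± 0.13), led the higher ones. Klf6, a transcription factor of regeneration, was lower (-1.16 ± 0.38), a call lost in 8 of 19 settings, among them without pulldown 1, 2, 4 or 5 and without input 1, 3 or 4 (adjusted p up to 0.09294). Atf3, the injury-induced transcription factor, had 0, 0, 0, 0.367 and 0.393 CPM in the pulldowns, against 1.45 to 2.44 CPM in the inputs, and was not called (adjusted p = 0.07375). Of 14 immediate early genes, which neurons switch on with activity, Nr4a3 (1.94 ± 0.39) and Junb (1.08 ± 0.32) were higher. The call of Junb was lost in 4 of 19 settings, namely voom, without pulldowns 1 and 3 together, without pulldown 1 and without input 4 (adjusted p up to 0.2418).

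Among the 6 genes tested within 500 kb of Colgalt2, some of which a large transgene could carry along, none was higher and Arpc5, an actin nucleation subunit, was lower (-0.64 ± 0.18), a call lost without pulldowns 1 and 3 (-0.45, adjusted p = 0.1125). Rgl1, its neighbour, had 90.8 to 158 CPM in the pulldowns and 141 to 168 CPM in the inputs (-0.15 ± 0.14, adjusted p = 0.5283). None of 5 sex-linked genes was called.

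The genes with the highest ratios were not on the layer 5 list. Atg7, the E1-like enzyme of autophagy, had 786, 1118, 1038, 817 and 759.6 CPM in the pulldowns, against 37.7, 39.6, 37.8, 39.6 and 35.9 CPM in the inputs (4.57 ± 0.18, adjusted p = 6.28e-17). Ubr3, a ubiquitin ligase, had 814, 1728, 2084, 2148 and 1406 CPM in the pulldowns, against 135, 139, 143, 131 and 124 CPM in the inputs (3.604 ± 0.205). Each pulldown library lay far above every input library for both genes, and pulldown 1 was the lowest for Ubr3.

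Sh2d3c, a signalling adaptor (3.47 ± 0.19), and Kalrn, a guanine exchange factor of dendritic spines (3.08 ± 0.22), followed. In healthy pulldowns the ratios of Atg7, Ubr3, Sh2d3c and Kalrn were 4.78, 3.30, 3.25 and 3.82, and in chronic pulldowns 4.33, 2.81, 2.87 and 2.71. The other genes named by the rule were Susd2 (2.49 ± 0.73), Yeats2, a histone reader (2.44 ± 0.26), Zbtb48, a telomere-binding zinc finger protein (2.43 ± 0.37), Nefm, Fasn, the fatty acid synthase (2.09 ± 0.15), Fezf2, Hspa1a, Pou3f1, Rusc1 (1.94 ± 0.13), Nr4a3 and Mad1l1, a spindle checkpoint protein (1.92 ± 0.27). Susd2 was low throughout, with 17.5 to 42.5 CPM in the pulldowns and 4.75 to 5.52 CPM in the inputs.

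At the other end, the 15 lower genes named by the rule included 6 from the mitochondrial genome. They were the transfer RNA gene mt-Tp (-5.99 ± 1.26), the ribosomal RNA mt-Rnr2 (-4.93 ± 0.65), and mt-Nd2, mt-Nd5, mt-Co1 and mt-Nd6. Noncoding RNAs of the nucleus made up another 3. Ftx, a regulator beside Xist, and Firre, a nuclear scaffold RNA, are both X-linked, and had 0 to 1.05 and 0 to 1.11 CPM in the pulldowns, against 8.93 to 10.04 and 6.64 to 7.53 CPM in the inputs. Snora43, a small nucleolar RNA, had reads in pulldown 4 only.

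The rest were Alpk1, an innate immune kinase (-5.04 ± 1.51), Tyrobp, Zfp871, a zinc finger gene (-4.70 ± 1.30), Kcna3, a potassium channel of lymphocytes and microglia (-4.58 ± 1.60), Zc3h11a, an RNA export factor (-4.54 ± 1.15), and the imprinted Rtl1 (-4.44 ± 1.44). Kcna3 lost its call in 12 of 19 settings, among them without any 1 acute library other than pulldown 4 (adjusted p up to 0.1403). Rtl1 lost it in 8, among them without pulldown 1, 2, 3 or 4 and without input 3 (up to 0.1153). Without pulldowns 1 and 3 the calls of Alpk1 (adjusted p = 0.07451), Firre (0.06512) and Snora43 (0.0553) were lost too. These genes had few or no reads in the pulldowns, so the fitted ratio depends on the prior count.

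Of the genes tested, 291 had no count in any acute pulldown. A floor of 3 counts summed over the 5 pulldowns (0.0433 CPM) was taken, which covers counting error only. Against that floor the 5 with most input counts were at least 54.8-fold lower (the transfer RNA gene mt-Tn), 36.9-fold (the homeobox gene Six5), 33.0-fold (the antisense gene Chn1os3), 32.6-fold (Gdap10) and 31.0-fold lower (the imprinted gene Zim1). Their inputs held 2.36 ± 0.36, 1.62 ± 0.39, 1.43 ± 0.14, 1.44 ± 0.74 and 1.38 ± 0.38 CPM in the same order (SD, n = 5). The genes were picked for having no pulldown count and many input counts, so large folds follow from that choice. At such input levels pulldowns 1 and 3 had a read for 15.9% and 12.9% of genes, a loss that the floor leaves out.

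The ratio of pulldown to input was then set against the same ratio in healthy mice. In healthy mice 1194 genes were higher (7.2%) and 2393 lower (14.4%), together 21.6%, and in chronic mice 1449 were higher (8.74%) and 3315 lower (20%), together 28.7%. Of the 1420 genes higher in acute pulldown, 929 were also higher in healthy pulldown, which is 65.4% of the acute and 77.8% of the healthy genes. Of the 1677 lower genes, 1045 were also lower in healthy mice, 62.3% of the acute and 43.7% of the healthy ones.

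**Figure D4:**
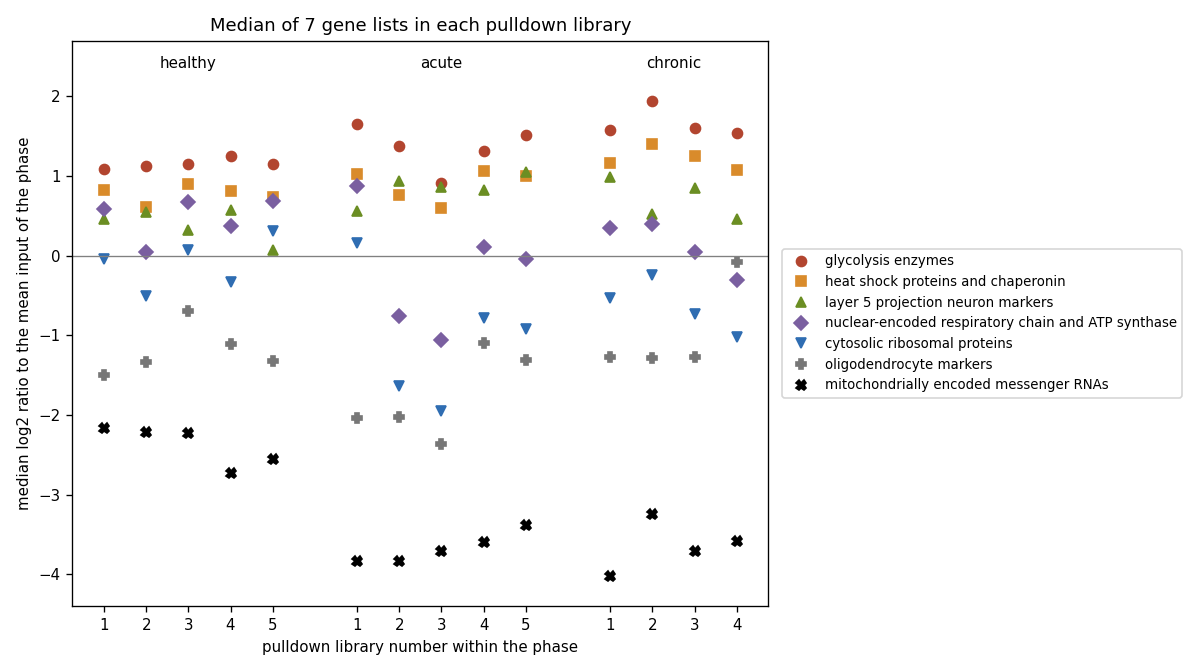
Each symbol is the median over 1 gene list of log2(CPM + 0.5) in 1 pulldown library minus the mean of the inputs of its phase (y axis), for the 5 healthy, 5 acute and 4 chronic pulldown libraries (x axis). Mitochondrially encoded messenger RNAs lie between -3.84 and -3.38 in acute and between -2.72 and -2.17 in healthy libraries, and ribosomal proteins range from -1.96 to 0.17 among the acute libraries.

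In the test of the difference between the acute and the healthy ratio, 1 gene of 16580 (0.00603%) was called with edgeR, Nefm, and 1901 genes had an unadjusted p under 0.05. Nefm averaged 1653 ± 194 CPM in the acute pulldowns and 959 ± 127 CPM in the healthy pulldowns, with 318 ± 18.1 CPM in the acute inputs and 326 ± 36.0 CPM in the healthy inputs (SD, n = 5 each). The acute ratio exceeded the healthy one by 0.82 ± 0.14 on the log2 scale (adjusted p = 0.04917), and every acute pulldown lay above every healthy one. The call was lost in 16 of 28 alternative settings, with adjusted p-values from 6.07e-07 to 0.141, and the direction was kept in all. They included the replicate block, the length offset, and leaving out acute pulldown 2 or 5, any 1 acute input, healthy pulldown 1, 3 or 5, or healthy input 2, 3, 4 or 5.

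Nefh, the heavy neurofilament, had 233, 255, 340, 238 and 284 CPM in the acute pulldowns, against 96.4, 144, 117, 147 and 124 CPM in the healthy pulldowns. Its inputs held 67.1 to 81.8 CPM in acute and 60.8 to 73.2 CPM in healthy mice. The ratio was higher by 0.94 ± 0.18 in acute mice and was not called (adjusted p = 0.07061). Mast3, a microtubule-associated kinase, and Ap3d1, a subunit of the AP-3 vesicle adaptor, had the same adjusted p, with differences of 0.76 ± 0.14 and 0.83 ± 0.18. For Mast3 and Ap3d1, as for the neurofilaments, the acute and the chronic pulldowns both lay above the healthy ones.

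**Figure D5:**
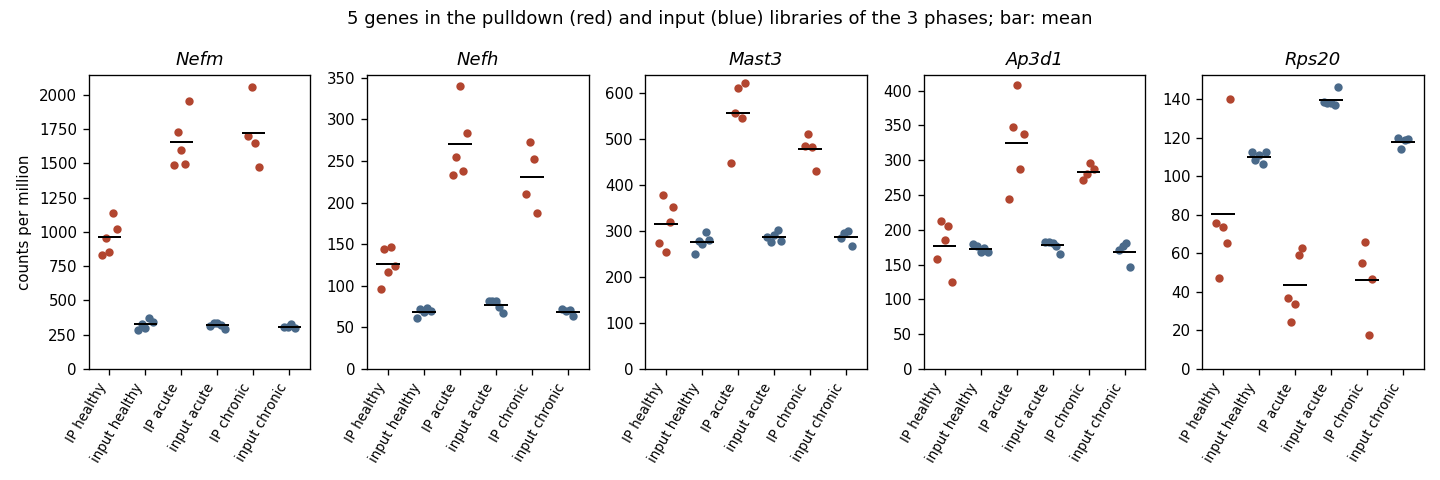
Nefm, Nefh, Mast3, Ap3d1 and Rps20 are shown in CPM (linear axes from 0) in the pulldown (red) and input (blue) libraries of healthy, acute and chronic mice, with the mean as a bar. Nefm lies at 1491 to 1954 CPM in acute pulldowns and at 832 to 1138 CPM in healthy pulldowns, while the inputs of the 3 phases overlap.

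The count for this difference turned on pulldowns 1 and 3. Without both, 749 genes had a higher ratio in acute than in healthy mice (4.43%) and 134 a lower one (0.792%), and without pulldown 1 alone 593 and 143. Without pulldown 3 alone the counts were 134 and 7. DESeq2 called 314 higher and 49 lower, and limma voom with library weights 185 and 61. Of the higher genes, 113 were common to the fit without pulldowns 1 and 3, voom and DESeq2. Of the lower genes, 0 were. Among the 4382 genes of low expression, 21.45% to 55% had a read in the healthy pulldowns. In acute pulldowns 2, 4 and 5 that share was 60.5% to 94.0%, so the acute libraries kept were more complete than the healthy ones. The part of this in the counts was not tested.

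Without pulldowns 1 and 3, Nefm (0.89), Nefh (0.88), Mast3 (0.81), Ap3d1 (0.83), Kif3a (0.83) and Hk1 (0.74) had a higher ratio in acute than in healthy mice, with adjusted p-values of 0.002009 for Nefm and Mast3 and 0.00484 or less for the others. In the same fit, 5 of 18 genes of the axonal cytoskeleton, 6 of 24 postsynaptic genes and 4 of 15 glycolysis enzymes had a higher ratio in acute mice and none had a lower one. With the length offset in addition the counts were 5, 3 and 3 in the same order, voom on all libraries gave 5, 0 and 1, and edgeR on all libraries gave 1, 0 and 0. Among them were Grin1 (0.80) and Camk2a (0.56). Grin1 and Camk2a had been called higher in acute pulldown over input as well, as had 4 of the 24 postsynaptic genes in all.

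Ribosomal proteins went the other way there. With pulldowns 1 and 3 left out, 42 of 79 had a lower ratio in acute than in healthy mice and none a higher one (median -0.98), among them Rpl9 (-1.33), Rpl13a (-1.32) and Rps3a1 (-0.69). With the length offset in addition the count was 22 (median -0.57), and with all libraries none was called (median -0.77). The difference between shortest and longest genes was -1.12 to 1.58 among the 5 acute pulldowns and 0.40 to 1.39 among the 5 healthy ones, so exon length moves with this result. Its part in the result was not tested beyond the offset. The respiratory chain likewise had 20 of 76 lower without pulldowns 1 and 3, and 5 with the length offset in addition.

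Mitochondrially encoded messenger RNAs had median log2 ratios of -4.45 in acute and -2.53 in healthy mice, and none of the 12 was called for the difference (median -1.77). DESeq2 called 4 lower, the fit without pulldowns 1 and 3 called 2 (median -1.47), and with the length offset in addition none was called (median -0.96). For mt-Cytb the difference was -1.58 ± 0.37 and was not called (adjusted p = 0.07061), and it was called without pulldowns 1 and 3 (-1.49, adjusted p = 0.02806). The medians of the layer 5 markers were 0.79 in acute and 0.29 in healthy mice, and those of the oligodendrocyte markers -1.53 and -1.32. Sag, a retinal arrestin, had 14.8, 1.38, 0, 3.93 and 3.80 CPM in the acute pulldowns and no count in any healthy pulldown, against inputs of 2.58 to 3.37 and 2.50 to 3.30 CPM, and was not called (adjusted p = 0.07061); without pulldowns 1 and 3 it was called (0.002764).

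Against the chronic phase no gene was called with edgeR, while 2321 had an unadjusted p under 0.05, and DESeq2 called 370 higher and 80 lower. Among the 5 genes with the smallest p, which failed the correction, were Plgrkt, a plasminogen receptor, Cobll1, Lpcat3, a phospholipid acyltransferase, and Fgfbp3, a growth factor binding protein. Each had no count in any of the 4 chronic pulldowns and reads in 3 or more of the acute ones, and the adjusted p-values were 0.0943 to 0.102; without pulldowns 1 and 3 these 4 were called (0.0001058 to 0.01407). Plgrkt, for example, had 9.47, 6.09, 11.8, 4.40 and 3.67 CPM in the acute pulldowns, with inputs of 8.74 to 11.5 CPM in acute and 6.96 to 9.02 CPM in chronic mice. Without pulldowns 1 and 3, 688 genes had a higher (4.07%) and 67 a lower ratio (0.396%) in acute than in chronic mice. In that fit 3 of 15 glycolysis enzymes had a lower ratio in acute mice and 0 a higher one. DESeq2 called 1 of the 15 lower, and edgeR on all libraries, voom and the length offset called 0. In the fit without pulldowns 1 and 3, 6 of 76 respiratory chain genes and 3 of 31 proteasome subunits also had a lower ratio. There, 3 of 24 postsynaptic and 3 of 22 presynaptic genes had a higher one. Among the 4382 genes of low expression, 19.2% to 45.1% had a read in the chronic pulldowns, against 60.5% to 94.0% in acute pulldowns 2, 4 and 5. The part of this in the counts was not tested.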

How the data were processed

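RNA from ribosome pulldowns and from the cortex input was enriched for poly A and sequenced on a NovaSeq6000, per the labels. The deposited values are raw counts of read pairs per gene. Per the file headers they were made by the authors with featureCounts 1.5.1 over the exons of Ensembl release 79 (GRCm38), with no strand option set. The submitters' processing notes also name STAR 2.4. Antisense and overlapping genes can therefore share counts, and so can near-identical copies. A symbol was given for 97.33% of the 43629 genes, and every deposited count column matched 1 labelled sample.

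From these counts, genes were filtered (edgeR filterByExpr, minimum count 10, minimum total 15), scaled by TMM and tested with edgeR 4.0.16 in R 4.3.3 (robust quasi-likelihood F test) in 1 fit of 28 libraries and 6 groups. The contrasts were pulldown over input in each phase and the difference of the acute ratio from the healthy and the chronic one. P-values were adjusted by Benjamini-Hochberg over all genes tested and called under 0.05. CPM values use TMM-scaled library sizes. Shares of counts were compared by exact two-sided permutation tests. Totals were 6198088 to 21229550 counts in the acute pulldowns and 19020653 to 27915940 in the acute inputs, and limits from counts of 0 cover counting error only. Each of the 20 within-group pairs of acute libraries differed by more than sampling noise. The fit was tested on simulated data.

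Always named were Fezf2, Pou3f1, Crym, Colgalt2, Rpl10a and Sting1. The others named were the 15 higher and 15 lower called genes with the largest log2 ratio (average log2 CPM at least 1, no overlap of the groups, no provisional symbol), and up to 6 members of each of 37 lists with the smallest adjusted p or going against their list. Also named were the 5 genes with the smallest p in a difference between phases, and the 5 genes at 0 in all acute pulldowns with most input counts. A few list members outside that rule, such as C1qb and Cd74, were chosen after their values were seen. Some of the genes this selection names are not reported here. The members and lists were chosen with earlier results of these data known. Alternatives were DESeq2 size factors, DESeq2 1.42.0, limma 3.58.1 voom with library weights, no filter, a replicate block, an exon length offset, the 10 acute libraries alone, leaving out each library and, added after seeing the data, leaving out pulldowns 1 and 3 with and without the offset.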

Additional observations from a re-analysis of the deposited data

Results flagged for a closer look

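Of 298 groups of 5 acute libraries tested, 39 held a value set apart from the other 4 by more than Dixon's 95% limit. Chance marks about 1 in 20 groups only where values are normally distributed and groups independent. Here a gene with reads in 1 library alone is always marked, as Ccr2 and Ly6c2 in pulldown 4, and many genes share the same library. The 39 were therefore not set against that rate. Acute input 5 held 17 of the 39. It was high for mt-Cytb (1108 CPM), mt-Co1 (2289 CPM), mt-Nd4 (535.3 CPM), mt-Nd6 (155.7 CPM), mt-Tp (12.73 CPM), Sst (232.4 CPM), Npy (82.19 CPM), Mog (40.03 CPM), Rps20 (146.4 CPM), Psmd3 (163.9 CPM), Grin1 (236.8 CPM), Gpx4 (322.1 CPM) and the ribosomal protein share (2.104% of counts). It was low for Rela (19.75 CPM), Cacnb4 (229.1 CPM), Ncoa4 (31.42 CPM) and Zfp871 (14.09 CPM).

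Acute pulldown 1 was high for Ldb2 (245.7 CPM) and Zbtb48 (99.17 CPM), and low for Mbp (170.1 CPM), mt-Cytb (20.18 CPM), Homer1 (79.81 CPM), Snhg11 (10.71 CPM) and Hspa1a (32.03 CPM). Acute pulldown 4, which had the most genes detected of the acute pulldowns, was high for Ccr2 (0.1048 CPM), Ly6c2 (0.4192 CPM), mt-Tp (0.524 CPM), Alpk1 (0.3144 CPM), Ftx (1.048 CPM), Kcna3 (0.9956 CPM) and Snora43 (0.8384 CPM). The others were pulldown 3 for Mrps5 (138.6 CPM), Asns (80.72 CPM) and Sh2d3c (416.8 CPM), pulldown 5 for Firre (1.113 CPM) and Rtl1 (0.8513 CPM), pulldown 2 for Zc3h11a (0.7946 CPM), and input 1 for Sh2d3c (21.74 CPM) and Hspa1a (10.6 CPM).

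Nefm was listed because its ratio of pulldown to input differed between acute and healthy mice by 0.825 on the log2 scale in the test of the difference itself.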

How the results depend on the processing

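In acute mice, voom called 2501 genes higher and 4355 lower, and the 10 acute libraries fitted alone called 781 lower. Leaving out 1 library gave 1228 to 1645 higher and 1360 to 2250 lower genes. The cause of these shifts was not tested. For the difference from healthy mice, the genes with a higher ratio in acute numbered 314 with DESeq2, 185 with voom, 0 with the replicate block, 0 with the length offset, 749 without pulldowns 1 and 3 and 701 with the offset in addition, and 0 to 593 on leaving out 1 library. Those with a lower ratio numbered 49, 61, 134 and 67 with DESeq2, voom, without both pulldowns and with the offset in addition, and 0 to 143 on leaving out 1 library. For the difference from chronic mice, higher ratios numbered 370 with DESeq2, 12 with voom, 1 with the length offset, 688 without both pulldowns and 736 with the offset in addition, and 0 to 265 on leaving out 1 library. Lower ratios numbered 80, 7, 2, 67 and 96 in the same order, and 0 to 34 on leaving out 1 library. Both highest leave-out counts came without pulldown 1.

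Some list medians moved by more than their spread over pulldown libraries. Without pulldowns 1 and 3, and then with the offset in addition, they were -1.77 and -1.38 for leukocyte, -2.93 and -2.60 for red blood cell, -4.18 and -3.66 for mitochondrially encoded, and -0.35 and -0.14 for sex-linked genes. With the offset alone they were -3.21 for red blood cell and -4.05 for mitochondrially encoded genes and 0.65 for the axonal cytoskeleton. With the offset and without both pulldowns they were 0.65 for the axonal cytoskeleton, -0.14 for ion channels and -1.60 for noncoding RNAs.

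Of 2712 values of 143 named genes under the alternatives, 2551 kept direction and side of the threshold, 142 lost the call, 16 gained one and 3 turned in sign. Those 3 were Rgl1 (0.008 in the acute libraries alone, 0.029 without both pulldowns with the offset) and Dync1h1 (0.115 in that last fit). The calls of Sst, Npy, Pvalb and Ciita were among those lost in the acute libraries alone.

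The replicate block called 1151 genes higher and 1263 lower in acute mice. The numbers were not treated as pairing the samples, since same-numbered pulldown and input deviated together with r of -0.051 to 0.133 (other pairs -0.148 to 0.099) and not every pair exceeded 0.1. The same range was 0.036 to 0.181 in healthy mice (other pairs -0.108 to 0.069) and -0.003 to 0.203 in chronic mice (other pairs -0.139 to 0.032). Of the pulldowns, 3 of 5 acute, 3 of 5 healthy and 3 of 4 chronic ones correlated best with the input of their own number, a hint from the data that the numbers may be shared, which the labels do not state. If they are shared, the p-values of the main fit leave that pairing out. Fewest genes of low expression had a read in pulldowns 1 and 3 (15.9% and 12.9%); pulldown 2, deeper than input 1, had a read for 60.5%, so the total count alone does not give the precision.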

Other observations

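Immediate early genes were uneven within both fractions. Fos, a transcription factor switched on by activity, had 141, 103, 74.9, 33.2 and 48.1 CPM in acute pulldowns 1 to 5, against 61.6, 56.8, 37.1, 25.2 and 36.1 CPM in acute inputs 1 to 5. Arc, an activity-induced protein of synapses, had 436, 455, 439, 204 and 259.5 CPM in the pulldowns, against 257, 262, 167, 141 and 156 CPM in the inputs. Nr4a1, a nuclear receptor of the same class, had 401, 397, 202, 140.0 and 253 CPM in the pulldowns, against 185, 193, 123, 94.2 and 110.0 CPM in the inputs. In both fractions libraries 1 and 2 were above libraries 4 and 5 for all 3 genes. None of the 3 was called in the fit of all libraries (edgeR adjusted p of 0.1906 for Fos, 0.1854 for Arc and 0.09962 for Nr4a1), while with the replicate number as a block Nr4a1 (adjusted p = 1.841e-05) and Arc (0.0001344) were called higher.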
